A study of Mus musculus with 8 samples.

Results

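Transcripts of 6 genes for ion, metal and acid-base transporters were followed through epithelial cells of the mouse stomach: the sodium/proton exchanger genes Slc9a4 and Slc9a2, the chloride/bicarbonate exchanger gene Slc4a3, the zinc importer gene Slc39a10, the iron exporter gene Slc40a1 and Slc23a3, a relative of the ascorbate transporter genes. These 6 genes were chosen by name out of 779 complete rows in the deposited table, and all 6 have a row there. They were read in the 1388 cell barcodes, of 1460, that held at least 100 unique molecular identifiers (UMIs, each standing for 1 captured transcript).

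The cells came from stomach glands of mice with the genotype Atp4bCre; Rosa26NICD; Arid1aflox/flox, collected at 23 weeks of age. Atp4b encodes a subunit of the proton pump of parietal cells, and its promoter drives the Cre recombinase, which turns on the Notch intracellular domain at Rosa26 and deletes the floxed Arid1a segment. All 8 labelled samples share these alleles, so there is no control genotype, and the labels do not say how many animals they came from. Single cells with strong EPCAM and weak Sytox Blue staining were sorted and profiled on the 10x platform, so every value describes that sorted epithelial fraction. No barcode carries a sample name, so the 1 table counts as 1 sample, its values have no replicate error, and no test was made.

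Parietal cells secrete acid through the proton pump at their apical membrane and pass the bicarbonate that is left over to the blood side through chloride/bicarbonate exchangers. Sodium/proton exchangers trade extracellular sodium for intracellular protons and so control cell pH and volume. Slc9a4 encodes the exchanger of the parietal basolateral membrane, while the product of Slc9a2 is known from the membranes of several epithelia of the gut. Zinc importers of the Slc39 family bring zinc into the cytosol, and ferroportin, the product of Slc40a1, is the known exporter of iron from cells.

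The table covered only part of chromosome 1, so a level is given as UMIs of a gene per 1000000 UMIs of the table (CPM), which is not the level in the whole library. The kept barcodes held 439743 UMIs, with a median of 286 and a range of 100 to 1082 per barcode. Of 16 markers listed for parietal cells, Slc9a4 itself was the 1 with a row, so whether the barcodes with Slc9a4 are parietal cells could not be checked. The lists for chief, neck and pit cells had 0 markers with a row, and those for tuft cells 2 of 6, endocrine cells 3 of 8, enterocytes 2 of 5 and cycling cells 2 of 4. Of the markers for cells that the sort should remove, the lymphocyte genes Cd28, Ctla4, Icos and Zap70 had 22 UMIs in all, the stromal genes Col3a1, Col5a2 and Des had 1 each and Fn1, also on the stromal list, had 483. Of the macrophage genes Slc11a1 had 4, and the other with a row is Slc40a1 itself.

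Slc9a4 was by far the most abundant of the 6 genes. It had 1030 UMIs in 621 barcodes, which is 44.7% of barcodes (95% interval 42.1 to 47.4, exact binomial) and a level of 2342 CPM (2201 to 2490, exact Poisson). These and all later intervals cover counting error only. Together the 6 genes had 1596 UMIs, 0.363% of the table, and Slc9a4 supplied 64.5% of them. By UMIs Slc9a4 ranked 52 among all genes of the table.

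Below Slc9a4 came Slc39a10, the zinc importer gene, with 271 UMIs in 218 barcodes (15.7%, 13.8 to 17.7) and a level of 616 CPM (545 to 694). Slc9a2 had 126 UMIs in 114 barcodes (8.21%, 6.82 to 9.78), a level of 287 CPM (239 to 341). Slc23a3 had 106 UMIs in 86 barcodes (6.20%, 4.99 to 7.60), a level of 241 CPM (197 to 292). The last pair did not differ beyond counting error, with a UMI ratio of 1.19 (0.911 to 1.55).

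The iron exporter gene Slc40a1 and the anion exchanger gene Slc4a3 were rare. Slc40a1 had 40 UMIs in 37 barcodes (2.67%, 1.88 to 3.66), a level of 91.0 CPM (65.0 to 124). Slc4a3 had 23 UMIs in 23 barcodes (1.66%, 1.05 to 2.48), a level of 52.3 CPM (33.2 to 78.5). In the order of UMIs, Slc9a4 exceeded Slc39a10 by a ratio of 3.80 (3.32 to 4.36), Slc39a10 exceeded Slc9a2 by 2.15 (1.73 to 2.68), Slc23a3 exceeded Slc40a1 by 2.65 (1.83 to 3.91), and Slc40a1 exceeded Slc4a3 by 1.74 (1.02 to 3.04). UMIs were not divided by gene length, so this is an order of captured molecules.

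Slc9a4 and Slc9a2 lie next to each other on chromosome 1. In the GENCODE vM21 annotation of GRCm38, Slc9a4 spans positions 40580081 to 40630725 and Slc9a2 40680574 to 40769273, both on the plus strand and 49.8 kb apart. They follow the interleukin receptor genes Il1r1 (40225080 to 40317257) and Il18rap (40515362 to 40551705). Slc40a1 (45908068 to 45926523) and Slc39a10 (46807544 to 46892852) are on the minus strand, as is Slc23a3 (75125541 to 75133890), while Slc4a3 (75546266 to 75562172) is on the plus strand. Except for Slc9a4 and Slc9a2, the members are not immediate neighbours.

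Most barcodes held few of these transcripts each. Of the 1388 barcodes, 819 had at least 1 UMI of at least 1 of the 6 genes (59.0%, 56.4 to 61.6), 208 had UMIs of 2 of them, 33 of 3 and 2 of 4. No barcode had 5 or more, which allows a share of up to 0.265% (exact binomial). A single barcode held at most 7 UMIs of Slc9a4, 5 of Slc23a3 and 4 of Slc39a10. At least 2 UMIs of Slc9a4 were seen in 262 barcodes (18.9%), at least 2 of Slc39a10 in 44 (3.17%), of Slc23a3 in 15 (1.08%), of Slc9a2 in 12 (0.865%), of Slc40a1 in 3 (0.216%) and of Slc4a3 in 0.

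The UMIs of Slc9a4, Slc39a10 and Slc23a3 were gathered in fewer barcodes than an even spread would give. A spread in proportion to barcode totals would put Slc9a4 in 49.8% of barcodes, and the share observed was 0.899 times that. The same quotient was 0.902 for Slc39a10, 0.849 for Slc23a3 and 0.955 for Slc9a2, against a median of 0.977 over the 240 genes with at least 50 UMIs. Of these 240 genes, 33 had a lower quotient than Slc9a4, 38 lower than Slc39a10, 21 lower than Slc23a3 and 79 lower than Slc9a2. The quotient also moves with abundance, so these counts are a description.

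The share of barcodes with a UMI followed depth for 5 of the 6 genes, whereas the levels did not all do so. A Slc9a4 UMI was seen in 28.5% of the 330 barcodes with 100 to below 200 UMIs, in 47.3% of the 712 with 200 to below 400 and in 54.9% of the 346 with 400 or more. Its level was 2535 CPM (2119 to 3008), 2771 (2549 to 3007) and 1796 (1606 to 2003) in these classes, lowest in the deepest barcodes. Slc23a3 ran the other way, with 96.7 CPM (31.4 to 226), 188 (134 to 257) and 343 (263 to 439). Slc39a10 was at 580 CPM (392 to 829), 521 (428 to 630) and 735 (615 to 871), and Slc9a2 at 329, 304 and 254, with intervals that overlapped throughout.

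**Figure D1:**
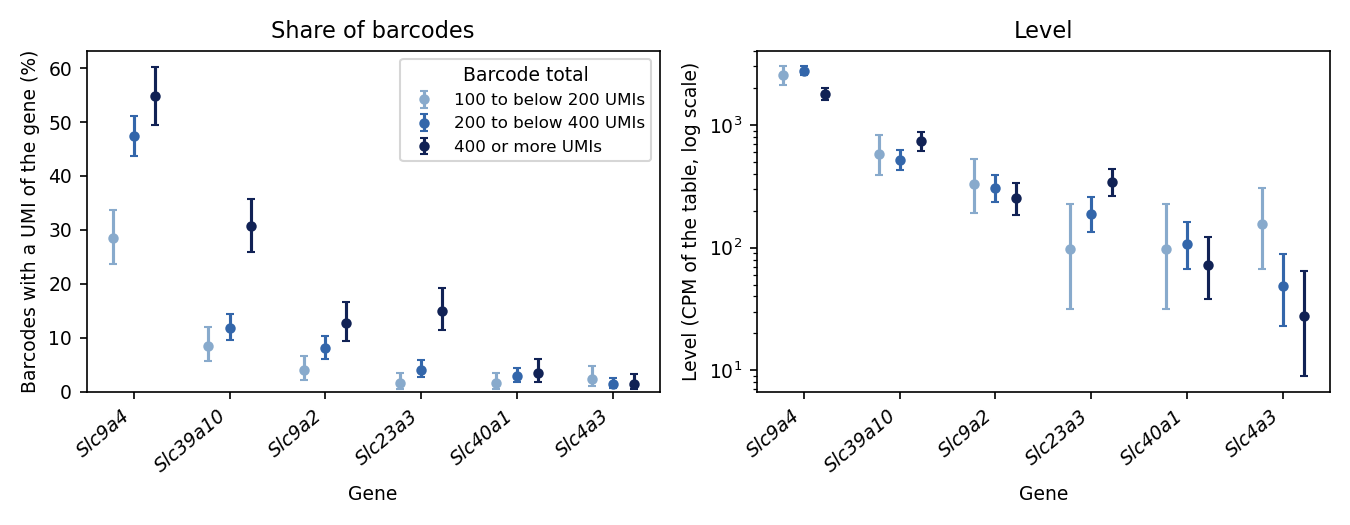
Share of barcodes with at least 1 UMI (left, percent) and level (right, CPM of the table on a log scale) of the 6 genes in barcodes of 3 depth classes; points are pooled values, and bars are 95% exact intervals for counting error. The Slc9a4 share rises from 28.5% to 54.9% with depth while its level is lowest in the deepest barcodes, and the Slc23a3 level is highest there.

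When each barcode was thinned to 100 UMIs, the shares fell to 19.7% for Slc9a4, 5.40% for Slc39a10, 3.24% for Slc9a2, 2.02% for Slc23a3, 1.22% for Slc40a1 and 0.720% for Slc4a3, in the same order as before. Free RNA from other cells can give single UMIs in cells that do not express a gene. No cell type is labelled that should lack these transcripts, and the nearest substitute was the 28 barcodes with a UMI of Inpp5d, an inositol phosphatase gene best known from blood cells and listed here as a tuft cell marker. Of these, 28.6% had a Slc9a4 UMI at a median of 270 UMIs, against 45.1% of the others at 286.5. After thinning the shares were 14.3% and 19.9%. The Slc9a4 level was 1492 CPM against 2358, a ratio of 0.633 (0.326 to 1.11) that did not differ beyond counting error. Slc39a10 was seen in 17.9% of the Inpp5d barcodes and 15.7% of the others, and Slc9a2 in 7.14% and 8.24%. In the 139 barcodes highest in Ptpn18 (a set defined below), the other listed tuft cell gene with a row, the Slc9a4 ratio was 1.05 (0.836 to 1.30). The thinned shares with Slc9a4 were 18.7% there and 19.9% in the rest. The shares of Slc9a4, Slc39a10 and Slc9a2 could thus not be told from background by these comparisons.

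Barcodes with Slc9a4 had higher levels of a small set of genes, among them Il1r1, Ihh, Gsta3 and the transporter gene Slc23a3. The 621 barcodes with a Slc9a4 UMI were set against the 767 without, with Slc9a4 left out of the totals. Their median totals were 319 and 265 UMIs. Over the 239 other genes with at least 50 UMIs the median ratio was 1.00 (quartiles 0.936 and 1.11). At least 1.5-fold higher with an interval above 1 were 6 genes, 2.51% of those compared, and at least 1.5-fold lower with an interval below 1 were 7 genes, 2.93%. By the fold alone 8 genes lay on each side, 3.35%. These counts describe the pooled table and carry no test.

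Among the other 5 transporter genes, Slc23a3 was 1 of the 6 higher genes. Slc23a3 had 71 UMIs with Slc9a4 and 35 without, 335 against 155 CPM, a ratio of 2.17 (1.43 to 3.35). At equal depth, by quartiles of the barcode total, the ratio was 1.93. Slc9a2 was at 335 against 243 CPM, a ratio of 1.38 (0.955 to 2.00) that just includes 1, and at 1.44 at equal depth. Slc39a10 (1.11, 0.866 to 1.42), Slc4a3 (0.978, 0.391 to 2.42) and Slc40a1 (0.575, 0.277 to 1.14) did not differ detectably between the sets, and the last pair had too few UMIs for the filter of 50.

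The other 5 higher genes were Il1r1, Ihh, B3gnt7, Il18rap and Cyp27a1. Il1r1, the interleukin 1 receptor gene, was at 1093 CPM with Slc9a4 and 552 without, a ratio of 1.98 (1.59 to 2.48). Ihh, which encodes the Indian hedgehog ligand, was at 1668 against 914 CPM, a ratio of 1.83 (1.53 to 2.18), and was seen in 35.7% against 18.8% of barcodes. B3gnt7, a glycosyltransferase gene, had a ratio of 2.22 (1.35 to 3.73) from 77 UMIs, of which 52 lay with Slc9a4 and 25 without. Cyp27a1, a sterol hydroxylase gene, had a ratio of 1.61 (1.08 to 2.43), and 1.18 with thinned barcodes. Il18rap, an interleukin 18 receptor subunit gene, had 1.61 (1.06 to 2.49), but 1.38 (0.891 to 2.16) without its 3 richest barcodes and 1.35 with thinned ones. B3gnt7 and Cyp27a1 were named after their values were seen.

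By the correlation of depth-corrected residuals across the 1388 barcodes, the 10 genes most like Slc9a4 were Gsta3, Plekhb2, Il1r1, Tmbim1, Ihh, Pgap1, Rdh10, Mgat4a, 2810459M11Rik and Neurl3. All barcodes come from 1 table and share its depth effects, and the correlations were weak, at 0.197 for Gsta3, 0.180 for Plekhb2, 0.163 for Il1r1 and 0.107 for Neurl3. They served only to choose names. Gsta3, a glutathione transferase gene, reached 16291 CPM with Slc9a4 and 11262 without, a ratio of 1.45 (1.37 to 1.52). Plekhb2 had a ratio of 1.35 (1.22 to 1.5), 2810459M11Rik 1.40 (1.14 to 1.73), Neurl3 1.28 (1.05 to 1.55), Pgap1 1.21 (1.07 to 1.38) and Mgat4a 1.20 (1.07 to 1.35). Tmbim1 (1.10) and the retinol dehydrogenase gene Rdh10 (1.07) lay closer to 1.

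The 5 genes least like Slc9a4 were abundant genes of growth and translation: Ptma (prothymosin alpha), the mitochondrial chaperonin genes Hspe1 and Hspd1, the elongation factor gene Eef1b2 and the ribosomal protein gene Rpl31. Their residual correlations lay between -0.145 and -0.0962, yet the pooled ratios were near 1, at 0.955 (0.936 to 0.973) for Ptma, 0.951 (0.925 to 0.978) for Eef1b2, 0.995 for Hspe1, 1.03 for Hspd1 and 0.992 for Rpl31. With thinned barcodes the Ptma ratio was 1.01. In barcodes with 3 or more Slc9a4 UMIs Ptma was at 79566 CPM (76640 to 82576), against 96263 (94989 to 97549) in those with 0. Eef1b2 was at 40582 CPM (38500 to 42748) against 46617 (45732 to 47515).

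**Figure D2:**
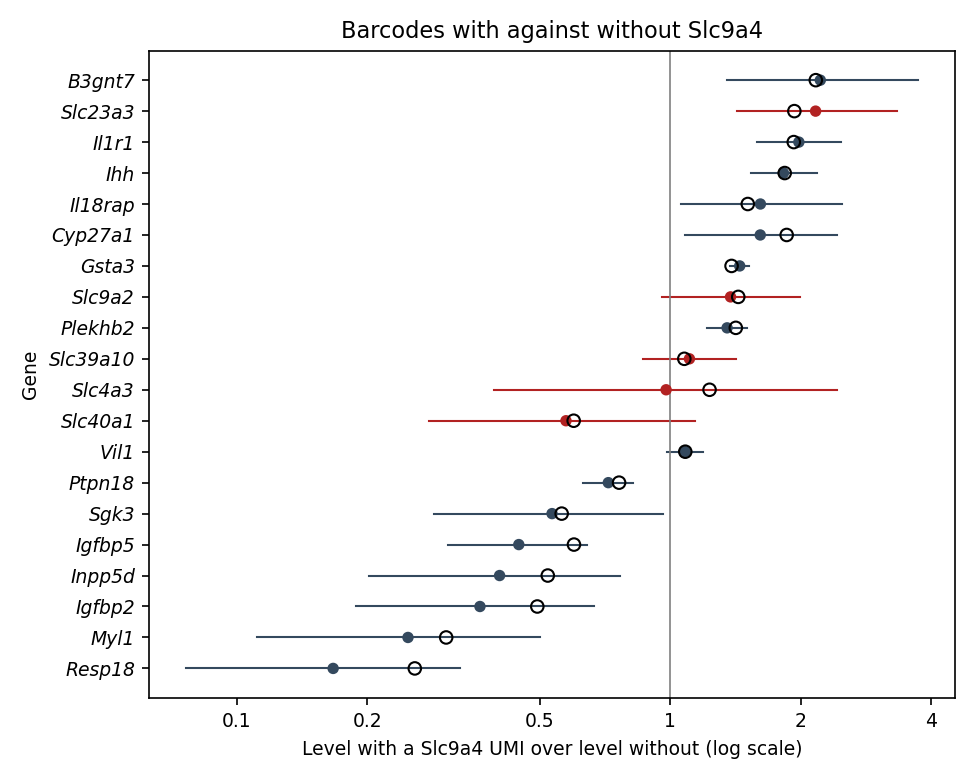
Level in the 621 barcodes with a Slc9a4 UMI over the level in the 767 without (log scale) for 20 genes; filled points are pooled ratios (red for transporter genes), lines are 95% exact intervals for counting error and open circles are ratios at equal depth. Slc23a3, Il1r1 and Ihh lie near 2, Slc39a10 near 1, and the pooled ratios of Igfbp5, Inpp5d and Igfbp2 below 0.5, while at equal depth Igfbp5 is at 0.600 and Inpp5d at 0.522.

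The 7 genes past the fold on the lower side were thinly counted, and Igfbp5 had the most UMIs of them, 44 with Slc9a4 and 105 without. Inpp5d had 14 UMIs with Slc9a4 and 37 without, a ratio of 0.404 (0.202 to 0.765), and 0.252 with the barcodes under 100 UMIs included. Igfbp5 and Igfbp2, whose products bind insulin-like growth factors, had ratios of 0.447 (0.307 to 0.642) and 0.364 (0.188 to 0.667). Igfbp5 was at 0.737 among barcodes with at least 200 UMIs and 0.600 at equal depth, and Igfbp2 at 0.887 with thinned barcodes, so neither was past the fold under every setting. Myl1, a myosin light chain gene, had 0.248 (0.111 to 0.502), the kinase gene Sgk3 0.534 (0.285 to 0.965) and Arid5a 0.637 (0.404 to 0.990), the last at 0.918 with thinned barcodes. The Myl1 UMIs were clustered, 10 in 4 barcodes with Slc9a4 and 43 in 10 without, and 36 of them lay in 3 barcodes. Igfbp2 had 15 UMIs in 8 barcodes with Slc9a4 and 44 in 16 without, and 25 of them lay in 3 barcodes. The intervals do not allow for such clusters. Ptpn18, the second tuft cell marker with a row, was at 1795 against 2494 CPM, a ratio of 0.720 (0.630 to 0.821). Without its 3 richest barcodes the Ptpn18 ratio was 0.812 (0.709 to 0.930). The share of barcodes with a Ptpn18 UMI ran the other way, at 41.4% with Slc9a4 and 34.8% without. The secretory granule gene Resp18 had 0.167 (0.0763 to 0.327), but 60 of its 74 UMIs lay in 3 barcodes, and without them the ratio was 2.66 (0.768 to 11.6). Without their own 3 richest barcodes, Sgk3 was at 0.683 (0.356 to 1.28) and Arid5a at 0.656 (0.408 to 1.04), and Myl1 at 0.229 (0.0421 to 0.819). In the same setting Igfbp5 was at 0.334 (0.214 to 0.509) and Igfbp2 at 0.383 (0.157 to 0.849). The Igfbp genes, Myl1, Sgk3 and Arid5a were named after their values were seen.

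Levels followed the number of Slc9a4 UMIs for Gsta3, Il1r1 and Slc23a3. The classes held 767 barcodes with 0, 359 with 1, 161 with 2 and 101 with 3 or more Slc9a4 UMIs. Gsta3 was at 11262, 13467, 19018 and 21404 CPM in these classes, and the share of barcodes with a Gsta3 UMI went from 65.1% to 94.1%. Il1r1 was at 552 (459 to 658), 964 (796 to 1157), 1141 (883 to 1452) and 1455 CPM (1084 to 1914). Slc23a3 was at 155 (108 to 215), 243 (163 to 349), 380 (238 to 576) and 571 CPM (349 to 882).

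Slc9a2 did not differ between 0 and 1 Slc9a4 UMIs, at 243 (183 to 316) and 235 CPM (156 to 339), and was at 398 (252 to 597) and 571 (349 to 882) with 2 and with 3 or more. Ihh was at 914, 1517, 1936 and 1741 CPM, with no further increase in the last class. B3gnt7 was at 110, 277, 225 and 171 CPM and Il18rap at 172, 293, 259 and 257 CPM, so both were highest with 1 Slc9a4 UMI. Slc39a10 stayed between 514 and 704 CPM in all 4 classes, with overlapping intervals. The villin gene Vil1, an actin bundler of the microvilli, was at 3717 CPM with 0 and 5394 (4652 to 6220) with 3 or more Slc9a4 UMIs. Median totals were 265, 310, 344 and 334 UMIs, so the class with 0 was also the shallowest.

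**Figure D3:**
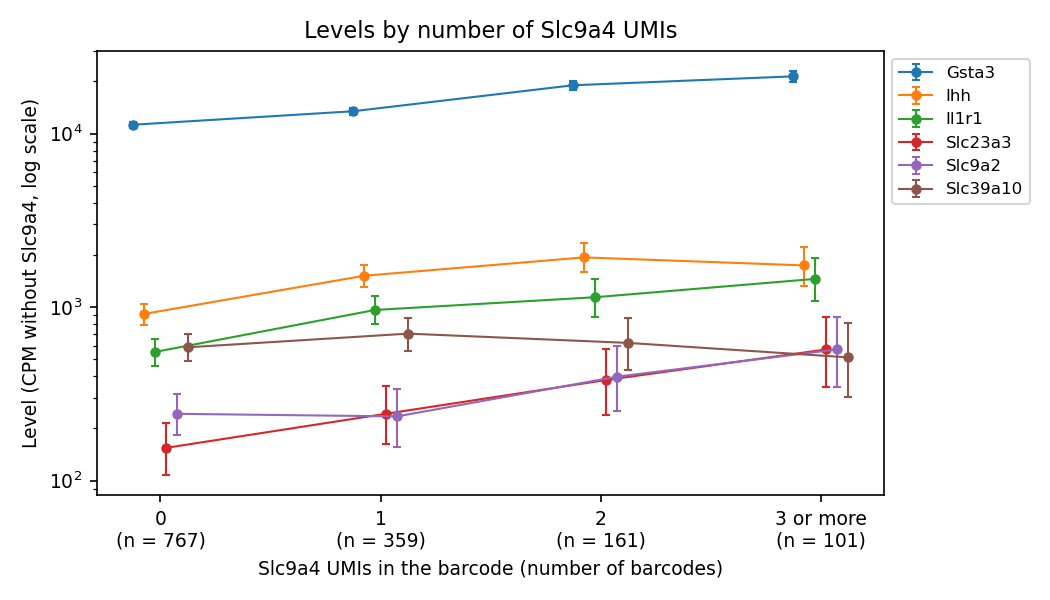
Level (CPM without Slc9a4, log scale) of 6 genes in barcodes with 0, 1, 2 and 3 or more Slc9a4 UMIs; points are pooled values joined by lines, and bars are 95% exact intervals for counting error. Gsta3, Il1r1, Slc23a3 and Slc9a2 are highest in barcodes with 3 or more Slc9a4 UMIs, and Slc39a10 stays between 514 and 704 CPM.

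The Slc9a4 companions were not limited to barcodes rich in Gsta3. The 139 barcodes in the highest 10% of Gsta3 residuals were left out in a comparison added after seeing the data, which left 532 barcodes with and 717 without Slc9a4. The ratio was then 1.91 (1.5 to 2.44) for Il1r1, 1.87 (1.55 to 2.25) for Ihh, 2.09 (1.33 to 3.33) for Slc23a3 and 1.32 (1.24 to 1.41) for Gsta3 itself. Slc9a2 was at 1.29 (0.866 to 1.93). Leaving out for each gene its 3 richest barcodes gave 1.83 for Il1r1, 1.72 for Ihh and 2.11 for Slc23a3.

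Slc9a4 was next read in sets of barcodes chosen by other genes. For 12 marker genes, the barcodes with a UMI of the marker and a residual among the highest 10% were set against all others, with the marker left out of the totals. This made 72 ratios for the 6 genes, and their intervals are not adjusted for that number. Such a set is a range of a continuous score and not a cell type: for 9 of the markers 4 to 74 barcodes lay within 0.25 residual units of the border, and for Inpp5d, Alpi and Ptprn every barcode with a UMI was taken.

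Slc9a4 was highest in Il1r1-high and Gsta3-high barcodes. Its level was 3780 CPM in the 140 Il1r1-high barcodes against 2183 in the rest, a ratio of 1.73 (1.46 to 2.05), and 63.6% against 42.6% of barcodes had a UMI of it. In Gsta3-high barcodes it was at 3653 against 2207 CPM, a ratio of 1.66 (1.40 to 1.94), and after thinning the shares were 28.1% and 18.8%. Vil1-high and Rdh10-high barcodes each had a ratio of 1.42 (1.18 to 1.69). These barcode sets have genes in common with the comparison above and are not independent of it.

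Slc9a4 was lower in 3 other sets. In Mcm3-high barcodes, chosen by a gene of the replication helicase, it was at 1737 against 2424 CPM, a ratio of 0.717 (0.570 to 0.891). In the 40 barcodes with Ptprn, which encodes a protein of secretory granules, it was at 1379 against 2381 CPM, a ratio of 0.579 (0.366 to 0.874), and in the 61 with the alkaline phosphatase gene Alpi the ratio was 0.733 (0.539 to 0.977). These Ptprn and Alpi barcodes were deep, with medians of 394 and 443 UMIs. Over all barcodes Slc9a4 was at 1796 CPM with 400 or more UMIs, 2771 with 200 to below 400 and 2535 with 100 to below 200. Whether depth accounts for the lower levels was not tested. In the Ptprn and Alpi sets the shares with a Slc9a4 UMI ran against the levels, at 47.5% against 44.7% for Ptprn and 50.8% against 44.5% for Alpi. With every barcode thinned to 100 UMIs they were 10.0% against 20.03% and 13.1% against 20.045%. Seen from the other side, Ptprn had a ratio of 0.943 (0.639 to 1.39) beside Slc9a4. Alpi had 0.690 (0.529 to 0.897), but 1.04 (0.754 to 1.43) without its 3 richest barcodes, which held 83 of its 247 UMIs. Ptpn18-high, Ccl20-high, Arl4c-high and Fn1-high barcodes had ratios between 0.936 and 1.10 whose intervals included 1.

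**Figure D4:**
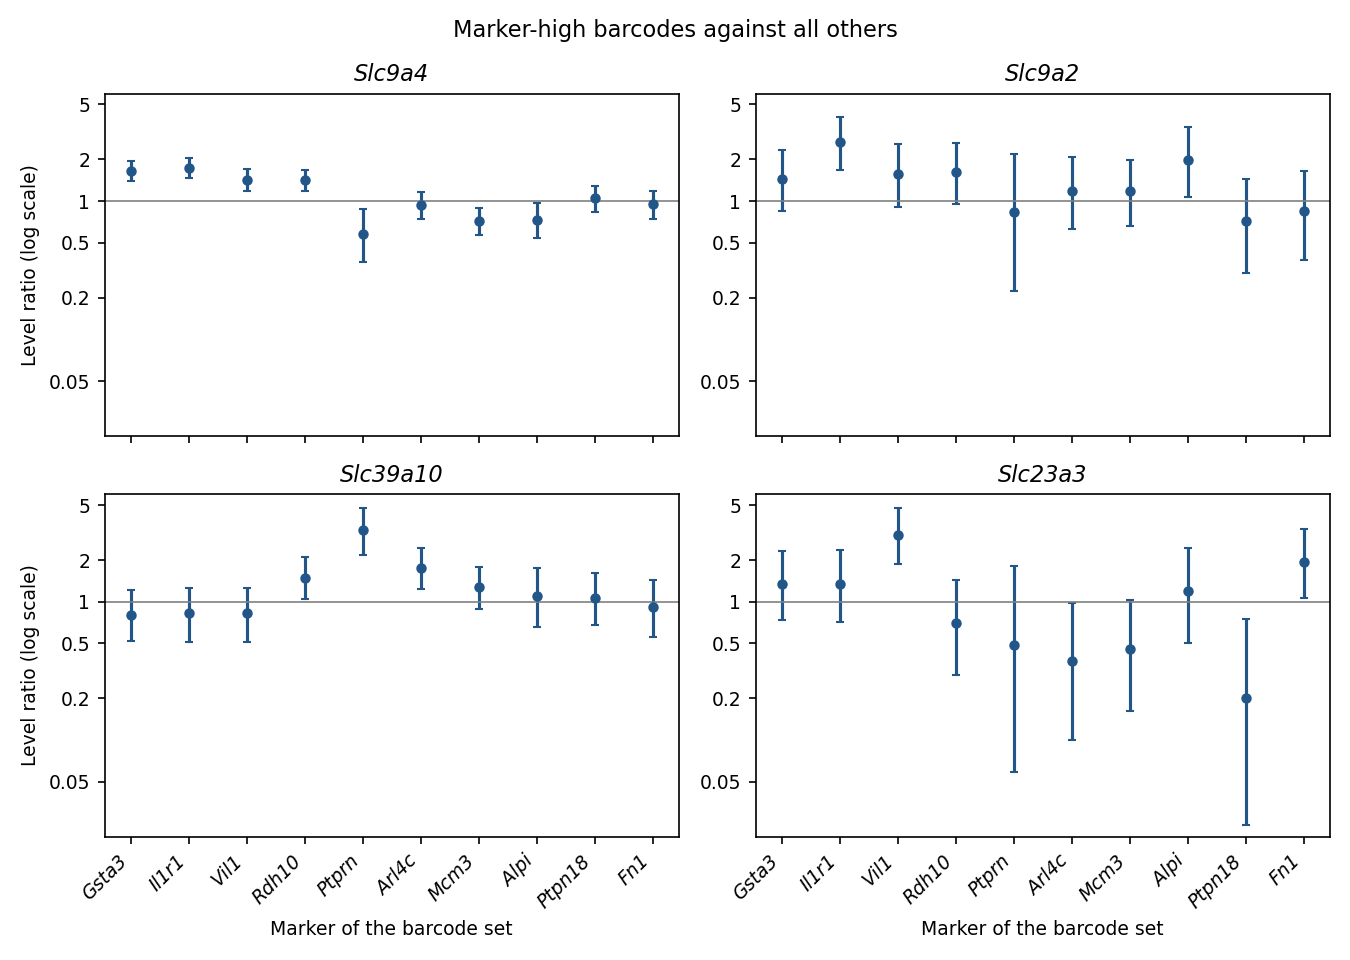
Level of Slc9a4, Slc9a2, Slc39a10 and Slc23a3 in marker-high barcodes over the level in all other barcodes (log scale) for 10 of the 12 markers; points are pooled ratios and bars are 95% exact intervals for counting error. Slc9a4 and Slc9a2 are highest in Il1r1-high, Slc39a10 in Ptprn-high and Slc23a3 in Vil1-high barcodes.

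The neighbouring exchanger gene Slc9a2 went most with Il1r1. Its level was 653 CPM in Il1r1-high barcodes against 246 in the rest, from 29 UMIs in 25 barcodes against 97 in 89, a ratio of 2.66 (1.69 to 4.06). Seen from the other side, Il1r1 was at 1940 CPM in the 114 barcodes with Slc9a2 and 692 in those without, a ratio of 2.80 (2.16 to 3.60). The gene next in likeness to Slc9a2 was Slc9a4, at 3052 against 2268 CPM, a ratio of 1.35 (1.11 to 1.62) and 1.44 at equal depth. The initiation factor gene Eif5b followed, at 1.20 (1.06 to 1.34). Slc9a2 was also higher in Alpi barcodes, with a ratio of 1.98 (1.07 to 3.41), but at 1.51 (0.731 to 2.81) without its 3 richest barcodes.

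The zinc importer gene Slc39a10 went most with Ptprn. In the 40 barcodes with Ptprn it was at 1859 CPM against 567 in the rest, a ratio of 3.28 (2.18 to 4.77), and 3.14 (2.04 to 4.66) without its 3 richest barcodes. Of these 40 barcodes 21 had a Slc39a10 UMI (52.5%), against 14.6% of the others, and after thinning to equal depth the shares were 17.5% and 5.04%. It was also higher in Arl4c-high barcodes, at 1009 against 577 CPM, a ratio of 1.75 (1.23 to 2.44), and in Rdh10-high barcodes, at 1.5 (1.04 to 2.10), where Slc9a4 was higher too. Its ratio in Gsta3-high barcodes was 0.808 (0.517 to 1.21).

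The 3 genes most like Slc39a10 were Ptprn, the tetraspanin-like gene Tm4sf20 and the noncoding RNA gene Snhg6. Ptprn was at 624 CPM in the 218 barcodes with Slc39a10 and 165 in those without, a ratio of 3.78 (2.56 to 5.56) and 3.47 at equal depth. The other endocrine markers with a row did not show this, but they were seen in few barcodes. Resp18 had 2 UMIs with Slc39a10 and 72 without (0.111, 0.0132 to 0.415), 60 of the latter in 3 barcodes. By barcodes Resp18 was seen in 0.917% of those with Slc39a10 and 0.940% of those without. Scg2 had 0 and 13 UMIs, all in 2 barcodes. Tm4sf20 was at 2087 against 734 CPM, a ratio of 2.84 (2.34 to 3.45), although 50 of its 184 UMIs beside Slc39a10 lay in 3 barcodes. Snhg6 was at 1.51 (1.33 to 1.72). Slc9a4 itself was at 1883 CPM with Slc39a10 and 2459 without, a ratio of 0.766 (0.644 to 0.905), and 0.869 at equal depth. Barcodes with Slc39a10 were deeper, with a median of 395 against 276 UMIs.

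Slc23a3 went with Vil1. In Vil1-high barcodes it was at 608 CPM against 201 in the rest, a ratio of 3.03 (1.88 to 4.75), and 2.56 (1.5 to 4.20) without its 3 richest barcodes. The 3 genes most like it were Vil1, the fatty acid oxidation gene Acadl and Il1r1. In the 86 barcodes with Slc23a3, Vil1 was at 5404 against 3713 CPM (1.46, 1.25 to 1.69), Acadl at 1.41 times (1.19 to 1.65) and Il1r1 at 1.66 times (1.20 to 2.26) the level in the others. Slc9a4 was at 1.24 times that level (1.01 to 1.52), and 1.48 times at equal depth, with barcode medians of 413.5 and 280 UMIs. Slc23a3 was lower in Ptpn18-high barcodes, from 2 UMIs in 139 barcodes (0.203, 0.0242 to 0.751), and had 0 UMIs in the 28 barcodes with Inpp5d, where the upper bound of the ratio was 1.90.

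The rarest members gave few contrasts. Slc40a1 had 0 UMIs in the Rdh10-high barcodes and 40 in the others, with an upper bound of the ratio at 0.835, or 0.987 without its 3 richest barcodes. With the highest 20% of Rdh10 barcodes the ratio was 0.565, so the count of 0 depends on where the set ends. Il1r1 had 4 UMIs in the 37 barcodes with Slc40a1, a ratio of 0.373 (0.101 to 0.962). Other marker genes with an interval outside 1 were Ccl20, with 1 UMI there (0.0686, 0.00173 to 0.384), Rdh10 (0.725, 0.573 to 0.906) and Mcm3 (1.78, 1.04 to 2.86). Seen from the other side, Slc40a1 in Il1r1-high, Ccl20-high and Mcm3-high barcodes had intervals that included 1. Slc11a1, the other iron-handling macrophage gene with a row, was seen in only 2 barcodes, neither of them with Slc40a1. That is too few to show whether the genes go together. Slc4a3 was at 168 CPM in Arl4c-high barcodes and 40.3 in the rest, 7 UMIs against 16, a ratio of 4.17 (1.45 to 10.7). The contrasts of Slc40a1 and Slc4a3 rest on few UMIs of these genes.

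The number of barcodes with both members of a pair was set against the number that their shares and the barcode totals would give. Slc9a4 and Slc9a2 shared 62 barcodes against 58.1 expected, 1.07 times (0.818 to 1.37). Slc9a4 and Slc23a3 shared 55 against 43.9, 1.25 times (0.943 to 1.63), and Slc9a4 and Slc39a10 108 against 110.5, 0.977 times (0.802 to 1.18). Slc9a2 and Slc23a3 shared 15 against 8.46, 1.77 times (0.992 to 2.92). For all 15 pairs the interval of this quotient included 1. It is a Poisson interval on the shared count and does not allow for the fixed number of barcodes with each gene. It can thus be wider than the counting error of the overlap, and it does not show that the members of a pair were unrelated. UMI levels, compared between barcodes with and without a member, had intervals outside 1 for some pairs. These were Slc23a3 beside Slc9a4 (2.17) and Slc9a2 (2.05), and Slc9a4 beside Slc9a2 (1.35), Slc39a10 (0.766) and Slc23a3 (1.24). By presence alone, without correction for depth, Slc23a3 was seen in 8.86% of barcodes with Slc9a4 and 4.04% of those without. For Slc9a2 the shares with Slc23a3 were 13.2% and 5.57%. Seen from the other side, Slc9a2 and Slc39a10 beside Slc9a4, and Slc9a2 beside Slc23a3, had intervals that included 1.

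Other transporter genes from the fixed lists gave the level in which the 6 stand. Of 11 listed sodium/proton exchanger genes 2 had a row, of 14 bicarbonate transporter genes 1, of 26 metal transport genes 6 and of 3 ascorbate transporter genes 1. Among the metal genes, Cnnm4 and Cnnm3, of a family linked to magnesium transport, were at 766 CPM (687 to 853) and 246 CPM (201 to 297), and the mitochondrial transporter gene Abcb6 at 389 CPM (333 to 452). Of 24 other transporter, channel and pump genes 17 had a row and 10 had a UMI. The most abundant were Atp6v1h, a subunit of the vacuolar proton pump (1051 CPM, 957 to 1151), and Mfsd6 (987 CPM, 896 to 1084). Slc9a4 was above them all.

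Of these other transporter genes, Abcb6 was higher beside Slc9a4 with a ratio of 1.43 (1.05 to 1.97), and 1.34 at equal depth. Atp6v1h (0.913, 0.757 to 1.10), Cnnm4 (1.04, 0.832 to 1.29), Cnnm3 (0.991, 0.666 to 1.47), Mfsd6 (1.01, 0.833 to 1.22), Mfsd9 (1.22, 0.858 to 1.74) and Xkr9 (1.60, 0.880 to 2.97) had intervals that included 1. None of them was among the 6 genes past the fold with an interval above 1.

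The genes around Slc9a4 and Slc9a2 on the chromosome did not all go with Slc9a4. Next to Il1r1 and Il18rap, whose ratios are given above, lies Il18r1, the partner receptor gene of Il18rap. It had a ratio of 1.12 (0.918 to 1.37), and Mfsd9, which follows Slc9a2 at a distance of 2.77 kb on the other strand, had 1.22 (0.858 to 1.74). The decoy receptor gene Il1r2 had 1 UMI beside Slc9a4 and 27 elsewhere, all 28 of them in 12 barcodes. Il1rl2 had 2 on each side and Tmem182 1 in all, while Il1rl1 had a row and 0 UMIs.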

How the data were processed

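The authors' file is 1 deposited matrix of raw counts, a row for each gene symbol and a column for each barcode, taken here to be UMI counts. Per the submitters' processing notes, Cell Ranger, Seurat 2.3.0 and mm10 were used, with no role or order given. The annotation, like any earlier filter, is not stated in these sources. The last row, Asb18, is incomplete and was left out, which leaves 779 genes, 711 of them matched to chromosome 1 of GENCODE vM21. A minimum of 100 UMIs removed 72 of 1460 barcodes. The table has 0 repeated barcodes and 0 unused value columns. Doublets were neither called nor removed.

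Levels are UMIs per 1000000 UMIs of the table, with exact Poisson intervals, and shares carry Clopper-Pearson intervals, at 95%. Ratios carry exact conditional binomial intervals. Residuals are Pearson residuals with overdispersion 100, limited to 10. A ratio at equal depth combines quartiles of the barcode total with Mantel-Haenszel weights. Named were the 6 genes, listed genes with a UMI, the 10 genes most and 5 least like Slc9a4, and the 3 most like each other member with at least 50 UMIs. Genes, lists and members were chosen with earlier results of these data known. The ratio script was tested on simulated data. Added after seeing the data were comparisons without Gsta3-high barcodes and without the 3 barcodes richest in a gene. Python 3.11.15, numpy 2.4.6, scipy 1.17.1 and pandas 2.3.3 were used.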

Additional observations from a re-analysis of the deposited data

Results flagged for a closer look

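The 72 barcodes under 100 UMIs, which the values of the report leave out except where they are said to be included, also held Slc9a4. They had a median of 71.5 UMIs, and Slc9a4 reached 3371 CPM (1964 to 5397) there, from 17 UMIs in 13 barcodes, above the 595 CPM that 3 counts over these barcodes would give. The level in the kept barcodes was 2342 CPM. Slc39a10 had 3 UMIs in these barcodes, Slc23a3 2, Slc9a2 1, and Slc40a1 and Slc4a3 0.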

How the results depend on the processing

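No paired analysis was possible because the 8 numbered samples form 1 group and the barcodes carry no sample name; leaving out a sample was not possible for the same reason. With each barcode thinned to 100 UMIs, the shares of barcodes were 19.7% for Slc9a4, 3.24% for Slc9a2, 0.720% for Slc4a3, 5.40% for Slc39a10, 1.22% for Slc40a1 and 2.02% for Slc23a3, and the levels of Slc9a4 and Slc9a2 were 2507 and 346 CPM. Among barcodes with at least 200 UMIs, Slc9a4 was seen in 49.8%, Slc39a10 in 18.0% and Slc23a3 in 7.66%. With Rpl37a, Rpl7, Rpl31 and Ptma out of the denominator, a smaller total by construction, the levels were 4654 CPM for Slc9a4, 569 for Slc9a2, 104 for Slc4a3, 1224 for Slc39a10, 181 for Slc40a1 and 479 for Slc23a3. The 6 genes at least 1.5-fold higher beside Slc9a4 became 11 with at least 2 Slc9a4 UMIs against 0, 9 with genes of at least 20 UMIs and 4 with thinned barcodes. The 7 lower genes became 3 among barcodes with at least 200 UMIs, 11 with at least 2 Slc9a4 UMIs and 11 with genes of at least 20 UMIs, and were 9 with no minimum on barcodes. Of the ratios beside Slc9a4, that of Ptma turned to 1.01 with thinned barcodes and that of Resp18 to 2.41 among barcodes with at least 200 UMIs; without the 3 richest barcodes of the gene Resp18 turned to 2.66 and Alpi to 1.04. The cause was not tested. With log2 values in place of residuals 7 of the 10 genes most like Slc9a4 were the same, and 8 among barcodes with at least 200 UMIs. In the sets of the highest 20%, Slc9a4 in Il1r1-high barcodes was at 1.43 times the rest, and Slc23a3 at 2.53 times in Il1r1-high and 1.09 times in Mcm3-high barcodes. Counting error limits every value, and Slc40a1 and Slc4a3 most.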
